A study of Mus musculus with 18 samples.

Results

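Immediate early and inflammatory stress genes were followed across spermatocytes and testes of mice that carry a chromosome translocation. The 8 genes, Fos, Fosb, Jun, Atf3, Egr1, Cxcl1, Cxcl2 and Il1a, were each read from the probe set that maps to their symbol, out of 15780 probe sets with a gene symbol and 16539 in all. They were chosen from earlier results of the sorted cells described here, so their levels in sorted cells are given as a description, without a test, and were tested only in the testes. The data are 18 microarrays. Pre-mid-pachytene spermatocytes were sorted by flow cytometry from testis cell suspensions of males 2 months old, labelled t12+/+T43 (n = 3) and Ttf+/+T43H (n = 3), and C57BL/10J males gave mid-late-pachytene (n = 2) and pre-mid-pachytene (n = 2) spermatocytes. Whole testes without their outer coat came from 15-day-old t12+/+T43 (n = 3), Ttf+/+T43H (n = 3) and C57BL/6J (n = 2) males. Both carrier lines are on a C57BL/10J background and share the translocation T43H, written T43 in the labels of the t12 line, and they differ in the partner chromosome, t12 or Ttf. The design text calls the C57BL/10J males fertile and the replicates biological. In the testes, strain background and genotype cannot be told apart, because the C57BL/6J controls have another background than the carriers.

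Immediate early genes are transcribed within minutes of a stimulus, from factors already present in the cell. Fos, Fosb and Jun encode subunits of AP-1, a dimeric transcription factor, Atf3 encodes a related stress-induced factor that pairs with Jun proteins, and Egr1 encodes a zinc finger factor of the same early wave. Cxcl1 and Cxcl2 encode chemokines that draw neutrophils through the receptor Cxcr2, and Il1a encodes a cytokine that acts through Il1r1. NF-kB is a main activator of such inflammatory genes, and in rats Sertoli cells, the somatic cells that nurse the germ line, are a known source of the Il1a protein.

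Values are log2 GCRMA values, so a difference of 1 is a doubling, and values under 4 carry little signal over background. Across all arrays, between 53.8% and 57.1% of probe sets reached 4. Levels of different probe sets are not comparable with each other. The sorted pre-mid-pachytene arrays had spermatocyte markers at mean log2 values of 12.98 to 13.96 and held somatic transcripts as well. The mean of 11 Sertoli markers was 6.63 to 7.52 in t12 carriers, 6.32 to 6.68 in Ttf carriers and 5.79 to 5.87 in C57BL/10J. The mean of 6 Leydig markers was 7.09 to 9.24, 6.17 to 7.32 and 3.73 to 5.22 in these groups. Gapdh probes at the 3' end minus those at the 5' end measure how intact the RNA and its labelled copy were. This gave 3.44 to 3.98 in t12 carriers, 3.26 to 3.91 in Ttf carriers and 2.86 to 2.93 in C57BL/10J pre-mid cells. It was 2.51 and 3.39 in mid-late C57BL/10J cells and -0.12 to 0.14 in testes. The same difference for actin probes was 3.51 and 3.38 in mid-late and 2.49 and 2.51 in pre-mid C57BL/10J cells. Across genes, replicate 2 correlated least with the other arrays of its group in both carrier lines, at 0.9747 and 0.9798 in t12 and 0.9629 and 0.9744 in Ttf carriers, against 0.9923 and 0.9948 between the other 2 arrays. In earlier results of these data t12 replicate 3 and Ttf replicate 2 had been set aside together. Values that turn on these arrays are therefore given without t12 replicate 3 and Ttf replicate 2, and also without replicate 2 of both lines, an alternative chosen after the data were seen.

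In the sorted pre-mid-pachytene cells, all 8 genes were higher on every t12 carrier array than on both C57BL/10J arrays, and 6 were higher on every Ttf carrier array. Among all 9666 genes tested in sorted cells, 26.0% stood above the controls on every t12 array and 20.4% on every Ttf array, and the choice of the 8 genes used these contrasts. The mean level over the 8 genes was 9.30 ± 0.66 in t12 carriers, 7.97 ± 0.21 in Ttf carriers and 6.01 ± 0.64 in C57BL/10J cells (SD, n = 3, 3 and 2). All 8 passed the filter on low values, Fosb and Cxcl2 through carrier arrays alone. The plot of values by array shows each of them.

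**Figure D1:**
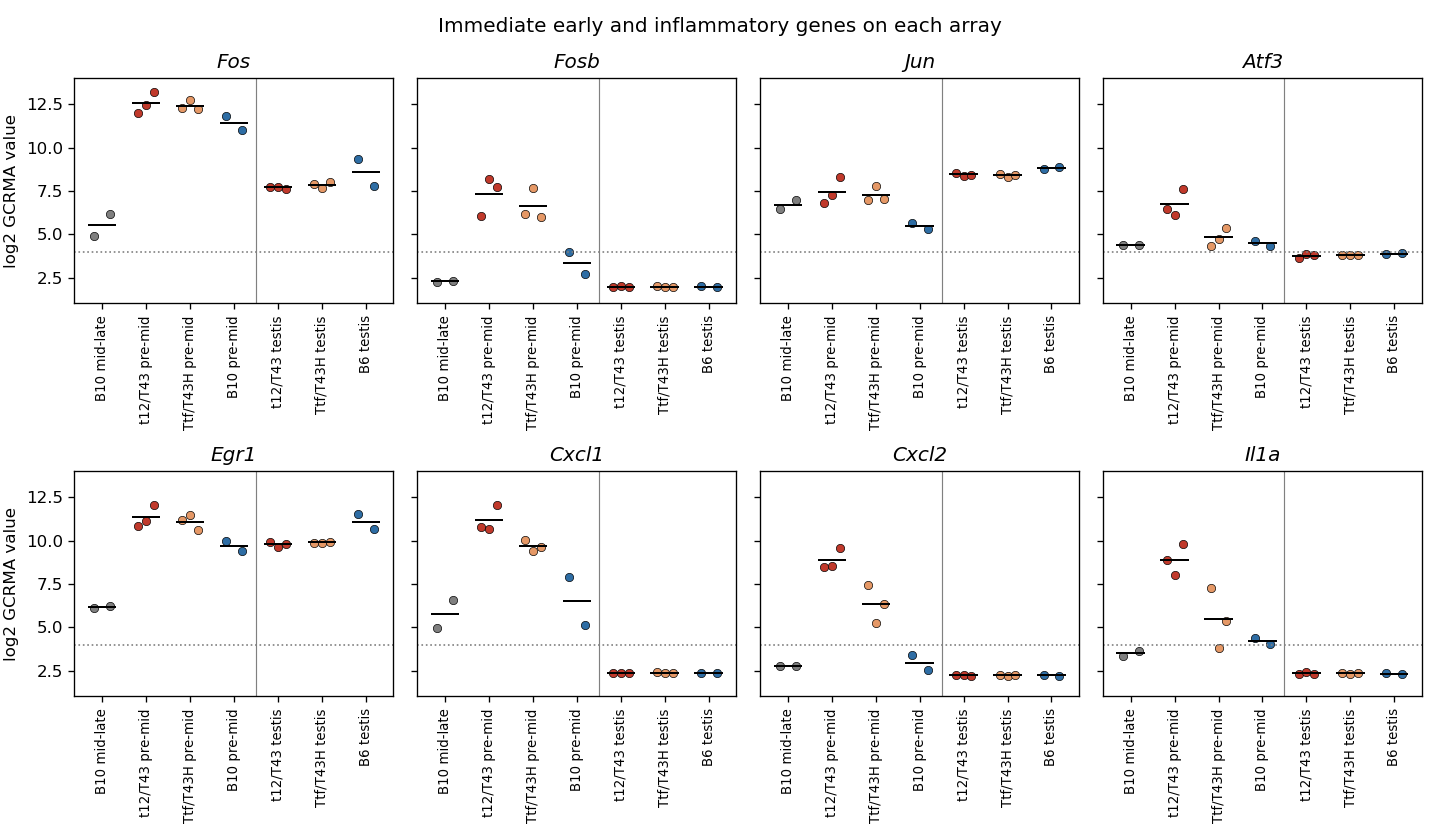
Log2 GCRMA value of each of the 8 genes (y axis) on every array, by group (x axis). Points are arrays, bars are group means, the dotted line marks 4, and the vertical line divides sorted cells from testes. Cxcl2 lies between 8.49 and 9.55 on the t12 carrier arrays and under 4 on every C57BL/10J and testis array.

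Fos, the AP-1 subunit that pairs with Jun proteins, was already abundant in control cells. Its log2 values were 12.03, 12.44 and 13.20 in t12 carriers, 12.27, 12.75 and 12.24 in Ttf carriers and 11.81 and 11.00 in C57BL/10J. The carrier groups overlapped with each other and lay above the controls, by 1.15 ± 0.47 for t12 and 1.01 ± 0.47 for Ttf (SE). Without t12 replicate 3 and Ttf replicate 2 these differences were 0.83 and 0.85, and without replicate 2 of both lines 1.21 and 0.85. In testes the values were 7.73, 7.75 and 7.63 in t12 carriers, 7.88, 7.70 and 8.03 in Ttf carriers and 9.35 and 7.81 in C57BL/6J.

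Fosb, a second Fos-type subunit, was below background on both control arrays and well above it in carriers. Its values were 6.06, 8.19 and 7.74 in t12 carriers, 6.19, 7.68 and 6.00 in Ttf carriers and 3.97 and 2.69 in C57BL/10J. The carriers' lowest array lay more than 2 log2 units above the highest control, and the means were 7.33 in t12 carriers, 6.62 in Ttf carriers and 3.33 in C57BL/10J. Where every array of a group lies under 4, its arrays are taken at 4 and the fold is a lower bound. Fosb was at least 10.1-fold higher in t12 carriers and at least 6.16-fold higher in Ttf carriers than in C57BL/10J. In all 8 testis arrays Fosb lay between 1.96 and 2.00, at background.

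Jun, which forms the other arm of AP-1, had values of 6.83, 7.28 and 8.29 in t12 carriers, 6.97, 7.80 and 7.01 in Ttf carriers and 5.66 and 5.31 in C57BL/10J. The carrier groups overlapped and both lay above the controls, by 1.98 ± 0.45 for t12 and 1.78 ± 0.45 for Ttf. Unlike the other 7 genes, Jun had its highest group means in testes, at 8.46 ± 0.09 in t12 carriers, 8.40 ± 0.06 in Ttf carriers and 8.81 ± 0.09 in C57BL/6J (SD, n = 3, 3 and 2).

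Atf3 separated the carrier lines. Its values were 6.46, 6.12 and 7.62 in t12 carriers, 4.34, 4.75 and 5.37 in Ttf carriers and 4.59 and 4.34 in C57BL/10J. The t12 arrays lay above all others, while Ttf carriers and controls overlapped. The t12 carriers exceeded C57BL/10J by 2.27 ± 0.45 and Ttf carriers by 1.91 ± 0.41, and Ttf carriers exceeded C57BL/10J by 0.35 ± 0.45. In testes Atf3 lay between 3.64 and 3.91.

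Egr1 had values of 10.83, 11.13 and 12.08 in t12 carriers, 11.17, 11.48 and 10.63 in Ttf carriers and 9.97 and 9.41 in C57BL/10J. As for Fos, the carrier groups overlapped with each other and stood above the controls. The differences were 1.66 ± 0.40 for t12 and 1.41 ± 0.40 for Ttf.

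The secreted factors were further from the controls in t12 carriers than in Ttf carriers. Cxcl1 had values of 10.79, 10.67 and 12.07 in t12 carriers, 10.02, 9.43 and 9.61 in Ttf carriers and 7.93 and 5.15 in C57BL/10J. The groups formed 3 steps without overlap, although the control arrays were far apart (SD 1.96). The differences from C57BL/10J were 4.64 ± 0.82 for t12 (24.9-fold) and 3.15 ± 0.82 for Ttf (8.86-fold).

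Cxcl2 had values of 8.49, 8.56 and 9.55 in t12 carriers, 7.44, 5.23 and 6.36 in Ttf carriers and 3.39 and 2.52 in C57BL/10J. It formed the same 3 steps, and both control arrays lay at background. Its means were 8.87 in t12 carriers, 6.34 in Ttf carriers and 2.95 in C57BL/10J. Cxcl2 was thus at least 29.2-fold higher in t12 carriers and at least 5.08-fold higher in Ttf carriers.

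Il1a had values of 8.88, 7.99 and 9.83 in t12 carriers, 7.26, 3.78 and 5.38 in Ttf carriers and 4.40 and 4.02 in C57BL/10J. It was the most variable of the 8 genes within Ttf carriers (SD 1.74), where 1 array lay under both controls. The t12 difference was 4.69 ± 0.89 (25.9-fold) and the Ttf difference 1.27 ± 0.89, or 2.11 without Ttf replicate 2. In testes, Cxcl1, Cxcl2 and Il1a lay between 2.21 and 2.44 on every array, at background.

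The neighbours of these secreted factors on the chromosome were set beside them, a choice made after their values were seen. Cxcl1 and Cxcl2 lie in a cluster of chemokine genes on chromosome 5. Cxcl5, Ppbp, Cxcl3 and Cxcl15 of that cluster had group means of 2.07 to 3.17 in all 3 pre-mid-pachytene groups, at background. Pf4, a platelet chemokine gene there, averaged 4.49 in t12 carriers, 3.30 in Ttf carriers and 3.21 in C57BL/10J. Il1b, which encodes the other interleukin-1 agonist and lies near Il1a on chromosome 2, averaged 2.61, 2.59 and 2.59 in these groups.

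Promoters are shown because these genes were higher together in carrier cells. RefSeq sequences upstream of the start site (build GRCm38.p6, 250 bases each) were at hand for 7 of the 8 genes, Egr1 being the other. Both strands were searched for the NF-kB site, the AP-1 site TGANTCA, the cyclic AMP response element TGACGTCA and its core TGACG, the serum response element core known as the CArG box, and the Egr site GCGNGGGCG. The last 150 bases before the start follow for 4 genes, in lower case with matches in capitals, for Cxcl1 (chr5:90891095-90891244, plus strand), Cxcl2 (chr5:90903749-90903898, plus strand), Il1a (chr2:129309973-129310122, minus strand) and Fos (chr12:85473740-85473889, plus strand).
Cxcl1: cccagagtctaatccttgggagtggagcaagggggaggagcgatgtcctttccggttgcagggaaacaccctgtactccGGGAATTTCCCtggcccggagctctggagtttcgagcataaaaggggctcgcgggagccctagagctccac
Cxcl2: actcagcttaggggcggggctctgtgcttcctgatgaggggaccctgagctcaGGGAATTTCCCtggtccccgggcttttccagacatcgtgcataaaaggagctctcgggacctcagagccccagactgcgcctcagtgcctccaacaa
Il1a: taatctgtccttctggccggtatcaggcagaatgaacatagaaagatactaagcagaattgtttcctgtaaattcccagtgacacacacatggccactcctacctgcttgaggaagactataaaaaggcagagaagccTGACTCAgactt
Fos: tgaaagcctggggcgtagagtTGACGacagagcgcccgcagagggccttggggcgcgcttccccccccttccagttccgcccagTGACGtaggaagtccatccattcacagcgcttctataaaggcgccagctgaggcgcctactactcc

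The capitals in Cxcl1 and Cxcl2 are the NF-kB site, which matched on both strands with an offset of 1 base. On the plus strand it spanned bases -71 to -62 of Cxcl1 and -97 to -88 of Cxcl2. It opened the longest run of letters the pair of promoters shared, 14 bases. Il1a held an AP-1 site from -12 to -6, and the capitals in Fos are 2 TGACG cores, starting at -129 and -66. The TGACG core also matched Fosb on the plus strand at -60, and Cxcl1 at -215 and -194 and Atf3 at -7 on the minus strand, none of them in a stretch shown. Fosb held an Egr site from -50 to -42 and an NF-kB match starting at -188, and Fos held an NF-kB match starting at -214, outside the stretch shown. No CArG box and no full TGACGTCA were found in the 7 windows, and Jun held none of the motifs. Of 32851 RefSeq promoters searched the same way, 7.25% held the NF-kB site, 6.75% the AP-1 site, 17.8% the TGACG core, 1.55% the full element, 1.47% the CArG box and 4.7% the Egr site. These matches describe letters only.

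Setting the carrier lines against each other compares the t12 with the Ttf chromosome beside the shared translocation. Il1a, Cxcl2, Atf3 and Cxcl1 were higher on every t12 than on every Ttf array, while Fos, Fosb, Jun and Egr1 overlapped. Such separation was seen in 5.68% of all genes, and the members were chosen with this contrast in view. The Il1a difference of 3.43 ± 0.80 (10.8-fold) ranked 1 among the rises of all 9666 genes, that of Cxcl2, 2.52 ± 0.54, ranked 4, that of Atf3 ranked 18 and that of Cxcl1, 1.49 ± 0.73, ranked 62. Without t12 replicate 3 and Ttf replicate 2, these differences were 2.12 for Il1a, 1.63 for Cxcl2, 1.44 for Atf3 and 0.92 for Cxcl1. Without replicate 2 of both lines they were 3.04, 2.12, 2.18 and 1.61. Those of Fos, Jun and Egr1 were 0.14 ± 0.42, 0.20 ± 0.40 and 0.25 ± 0.36, and that of Fosb was 0.71 ± 0.65.

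**Figure D2:**
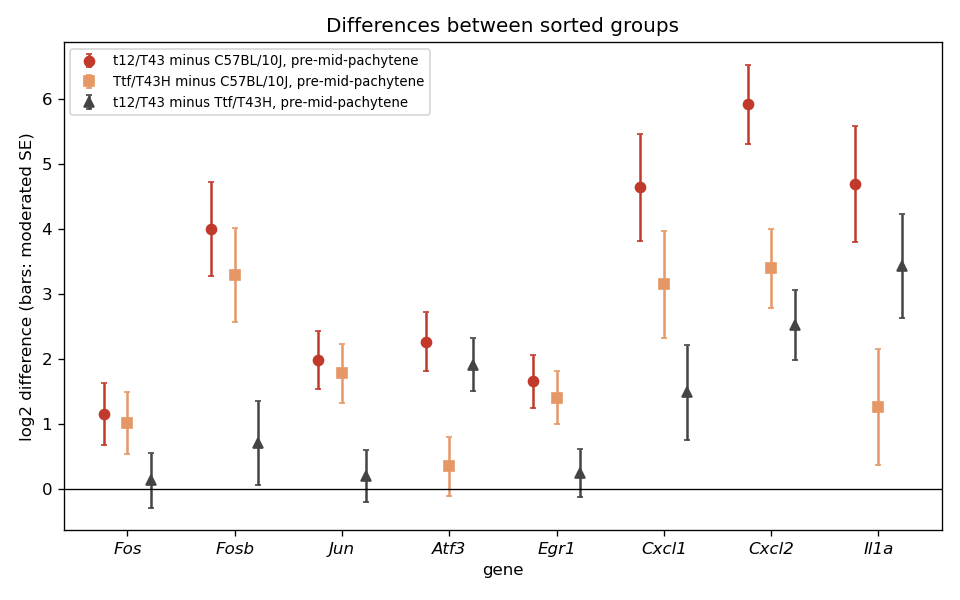
Log2 difference (y axis) of each gene (x axis) between sorted pre-mid-pachytene groups, with limma's moderated SE as bars. Circles are t12 carriers minus C57BL/10J, squares Ttf carriers minus C57BL/10J and triangles t12 minus Ttf carriers; the triangles of Il1a, Cxcl2, Atf3 and Cxcl1 lie between 1.49 and 3.43, and those of Fos, Jun and Egr1 at 0.25 or less. Fosb and Cxcl2 are drawn at their measured differences, and their C57BL/10J values are below background.

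Normal cells of later stage held much less Fos and Egr1. Fos was at 4.90 and 6.16 in mid-late-pachytene and 11.81 and 11.00 in pre-mid-pachytene C57BL/10J cells, a difference of -5.87 ± 0.52 (58.6-fold). Egr1 was at 6.12 and 6.20 in mid-late and 9.97 and 9.41 in pre-mid cells, a difference of -3.53 ± 0.44. Jun ran the other way, at 6.44 and 6.98 in mid-late and 5.66 and 5.31 in pre-mid cells, a difference of 1.23 ± 0.49. Fosb, Atf3, Cxcl1, Cxcl2 and Il1a differed by -1.04 to -0.08, with group means in mid-late cells of 2.29, 4.39, 5.75, 2.76 and 3.50. In this contrast 26.2% of all genes were called higher and 30.3% lower. The Sertoli marker mean was 3.54 and 3.74 in mid-late and 5.79 and 5.87 in pre-mid cells.

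The order of group means was t12 carriers, Ttf carriers, C57BL/10J pre-mid-pachytene and C57BL/10J mid-late-pachytene cells for Fos, Fosb, Atf3, Egr1, Cxcl1, Cxcl2 and Il1a. The last step, between the C57BL/10J stages, lay within the arrays' spread for Atf3, Cxcl1 and Cxcl2. For Fosb, Atf3, Cxcl1, Cxcl2 and Il1a all 3 testis groups came below every sorted group. Order among groups that lie under 4 on every array is not to be read. These groups are the testes for all of those genes, both C57BL/10J stages for Fosb and Cxcl2, and mid-late cells for Il1a. For Fos the testes came between the C57BL/10J stages, and for Egr1 the C57BL/6J testes, at 11.10 ± 0.62, were level with Ttf carrier cells, at 11.10 ± 0.43 (SD). Jun was ordered C57BL/6J, t12 and Ttf testes, then t12 and Ttf carrier cells, mid-late and pre-mid-pachytene C57BL/10J cells, where t12, Ttf and mid-late cells overlapped. Age, tissue, RNA isolation kit, cell suspension, sorting and the Gapdh 3' minus 5' values all differed between sorted cells and testes. These cannot be told apart, and the sources used here do not say whether both sets were normalized together.

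The testes were not used to choose the genes and allow a test. Only Fos, Jun and Egr1 passed the filter there, and the other 5 were under 4 on every array. Egr1 fell to 9.91, 9.63 and 9.82 in t12 carriers, against 11.54 and 10.66 in C57BL/6J, a difference of -1.31 ± 0.23 (limma, adjusted p = 0.00837). Jun was at 8.56, 8.39 and 8.45 in t12 carriers, against 8.75 and 8.88 in C57BL/6J, and fell by 0.35 ± 0.07 (limma, adjusted p = 0.0163). Neither overlapped the controls. In this contrast 11.3% of the 9134 genes tested were called lower and 10.5% higher, and 26.6% lay below both controls on every t12 array. Fos, at -0.87 ± 0.38, did not pass (limma, adjusted p = 0.146), although its t12 arrays also lay below both controls.

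Ttf carrier testes gave a like pattern with the same controls. Egr1 was at 9.89, 9.89 and 9.95, a difference of -1.19 ± 0.23 from C57BL/6J (limma, adjusted p = 0.0219), and Jun was at 8.45, 8.33 and 8.42, a difference of -0.41 ± 0.07 (limma, adjusted p = 0.0175). Both fell, where 4.70% of all genes were called lower and 3.86% higher, and 21.6% lay below both controls on every Ttf array. Fos differed by -0.71 ± 0.38 and did not pass (limma, adjusted p = 0.298). Between t12 and Ttf carrier testes none of the 3 genes passed in limma, and none had an unadjusted p under 0.05, with differences of -0.17 ± 0.34 for Fos, 0.06 ± 0.07 for Jun and -0.12 ± 0.20 for Egr1. There 1.07% of all genes were called higher and 3.92% lower.

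These testis calls rest on few arrays. Without C57BL/6J replicate 1, which had the higher Fos and Egr1, Jun no longer passed in t12 carriers (limma, adjusted p = 0.0506) or in Ttf carriers (0.0589), and Fos differed by -0.10 and 0.06. Egr1 then differed by -0.88 in t12 carriers (limma, adjusted p = 0.0124) and by -0.75 in Ttf carriers (0.0316). Without C57BL/6J replicate 2, Fos passed at -1.65 in t12 carriers (limma, adjusted p = 0.00244) and at -1.48 in Ttf carriers (0.00519), and Jun did not (0.104 and 0.122). Without Ttf replicate 1, Egr1 did not pass in Ttf carriers (limma, adjusted p = 0.0618), and without Ttf replicate 2 neither Egr1 (0.0746) nor Jun (0.0636) passed. Leaving out any t12 array ended neither of the t12 calls. The mean of the Leydig markers was 5.01 to 7.28 in t12, 4.53 to 7.28 in Ttf and 7.03 to 7.69 in C57BL/6J testes, and its part in these differences was not tested.

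**Figure D3:**
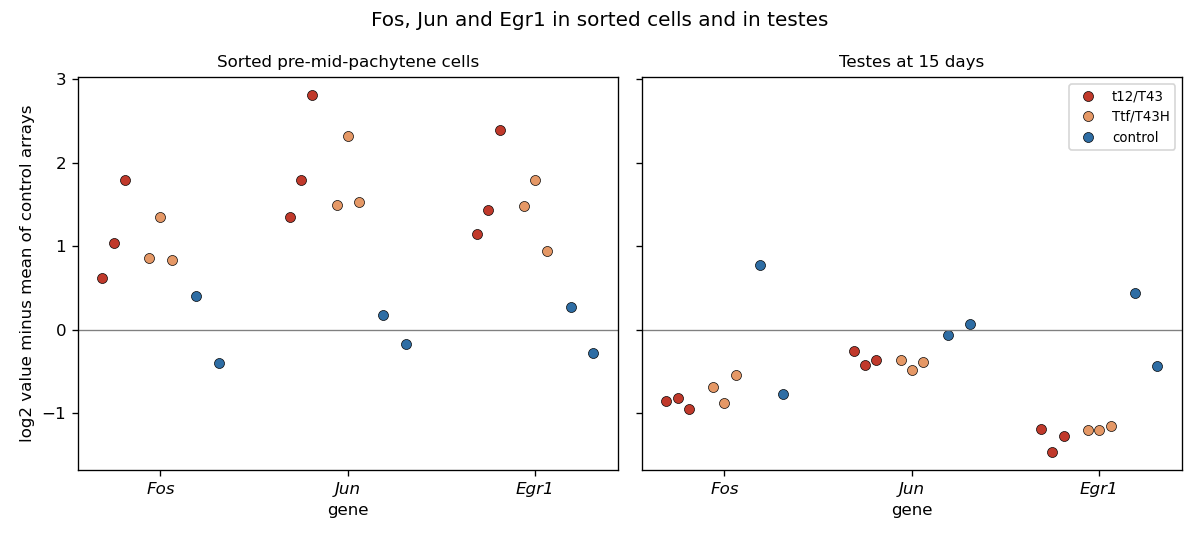
Log2 value minus the mean of the control arrays (y axis) for Fos, Jun and Egr1 (x axis), with each point an array. Left, sorted pre-mid-pachytene cells against C57BL/10J; right, testes against C57BL/6J. In sorted cells the mean differences of both carrier lines lie between 1.01 and 1.98, and in testes between -1.31 and -0.35.

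Further genes of the same classes were examined as 3 lists, 12 AP-1 relatives, 31 other immediate early genes and 22 other inflammatory genes. Of these 65 genes, 32 passed the filter in sorted cells, 4 of them (Junb, Fosl2, Maff and Zfp36l1) through carrier arrays alone. In t12 carriers against C57BL/10J, 6 rose, 0 fell and 26 did not pass, where 3.24% of all genes were called higher and 5.83% lower. The median difference of the 32 was 1.26, against 0.06 over all genes tested. Of the 32, 24 (75.0%) lay above the controls on every array, as did 26.0% of all genes. The 24 include the 4 genes that passed through carrier arrays alone, whose separation is no support. Without those 4 genes, the count of genes that rose was 5 of 28, with a median of 1.26. The count of 6 was 16 without replicate 2 of both carrier lines, where 28.7% of all genes were called, against 9.07% with all arrays. It was 1 without t12 replicate 3, where 6.06% were called. It also fell without either C57BL/10J array, which leaves a single control.

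By class, 1 of 7 AP-1 relatives, 3 of 21 other immediate early genes and 2 of 4 other inflammatory genes rose in t12 carriers (3.24% of all genes were called higher). Vcam1, an adhesion molecule for leukocytes, was at 8.17, 8.23 and 9.26 in t12 carriers and 5.57 and 4.76 in C57BL/10J, and rose by 3.39 ± 0.44 (limma, adjusted p = 0.0027). Lcn2, an iron-binding acute phase protein, was at 11.22, 11.08 and 13.07 in t12 carriers and 9.23 and 6.96 in C57BL/10J, and rose by 3.69 ± 0.81 (limma, adjusted p = 0.0251). Both had t12 ranges clear of the controls. The early genes Rhob, a small GTPase, Csrnp1, a nuclear factor, and Egr2, a relative of Egr1, rose by 2.15 ± 0.46, 1.87 ± 0.42 and 1.53 ± 0.39, and the called AP-1 relative was Maff. Its means were 4.13 in t12 carriers and 2.62 in C57BL/10J, where both arrays were below background, so that its bound is at least 1.09-fold. Maff passed the filter through carrier arrays alone, so its call is no support. The AP-1 subunit gene Junb, also named with its values known, averaged 5.03 in t12 carriers and 2.95, below background, in C57BL/10J, and did not pass (limma, adjusted p = 0.0851). Most of the inflammatory list was at background. Il1b, Il6, Tnf, Ccl2, Ptgs2 and Csf3, named with their values known, had group means between 2.02 and 3.08 in the 3 pre-mid-pachytene groups.

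In Ttf carriers against C57BL/10J, 1 of the 32 rose, 0 fell and 31 did not pass, where 0.590% of all genes were called higher and 1.47% lower. The median difference was 0.84, against 0.01 over all genes. Of the 32, 18 (56.2%) stood above the controls on every array, as did 20.4% of all genes. The 18 include Junb and Fosl2, which passed the filter through carrier arrays alone, so their separation is no support. The gene that rose, Klf4, a zinc finger factor of the early response, was at 9.05, 9.58 and 8.21 in Ttf carriers and 6.49 and 6.72 in C57BL/10J, a difference of 2.35 ± 0.44 (limma, adjusted p = 0.0391). The Klf4 ranges did not meet, and its t12 difference was 1.23 ± 0.44 (limma, adjusted p = 0.139). The count of 1 was 0 without Ttf replicate 1, and it also fell without either C57BL/10J array, which leaves a single control. It was 3 both without t12 replicate 3 and Ttf replicate 2 and without replicate 2 of both lines. There 5.69% and 18.4% of all genes were called, against 2.06% with all arrays.

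Between the carrier lines, 0 of the 32 passed in limma and 7 had an unadjusted p under 0.05, where 0.0621% of all genes were called higher and 0.693% lower. Their median difference was 0.25, against 0.05 over all genes. Of the 32, 5 (15.6%) were higher and 2 lower on every t12 array, where 5.68% of all genes were higher. Maff, among the 5, passed the filter through carrier arrays alone and is no support. The count was 2 without t12 replicate 2 and 3 without replicate 2 of both lines, where 4.27% and 5.42% of all genes were called. Vcam1 differed by 2.12 ± 0.39 (limma, adjusted p = 0.0595).

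Among the pathways upstream, 2 of 11 tested NF-kB genes rose in t12 carriers and 0 fell, where 3.24% of all genes were called higher and 5.83% lower, and the median of the 11 was 0.49. Nfkbia, the inhibitor that NF-kB itself induces, was at 11.02, 10.37 and 12.25 in t12 carriers and 8.59 and 7.55 in C57BL/10J, a difference of 3.14 ± 0.57 (limma, adjusted p = 0.0113). Nfkbiz, a nuclear NF-kB cofactor, rose by 3.58 ± 0.72 (limma, adjusted p = 0.0174). In Ttf carriers these genes differed by 2.54 ± 0.57 and 1.95 ± 0.72 (limma, adjusted p = 0.0606 and 0.204). Of 10 genes of the integrated stress response, 1 was called higher in t12 carriers, Ddit4, an inhibitor of mTOR signalling. It passed the filter through carrier arrays alone, so its call is no support and its values are a description. Its means were 7.29 in t12 carriers and 3.56, below background, in C57BL/10J, at least 9.79-fold higher in t12 carriers. None of 11 upstream kinases and factors (1 with an unadjusted p under 0.05), none of 7 heat shock genes (0) and not the receptor gene Il1r1 passed in limma in t12 carriers. In Ttf carriers none of the 11 NF-kB genes, 10 integrated stress response genes, 11 upstream genes or 7 heat shock genes passed in limma, with 3, 1, 2 and 0 at an unadjusted p under 0.05, where 0.590% of all genes were called higher and 1.47% lower. Il1r1 averaged 5.13 in t12 carriers, 4.54 in Ttf carriers and 5.12 in C57BL/10J, and Cxcr2, the chemokine receptor, 2.33, 2.31 and 2.33, at background.

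**Figure D4:**
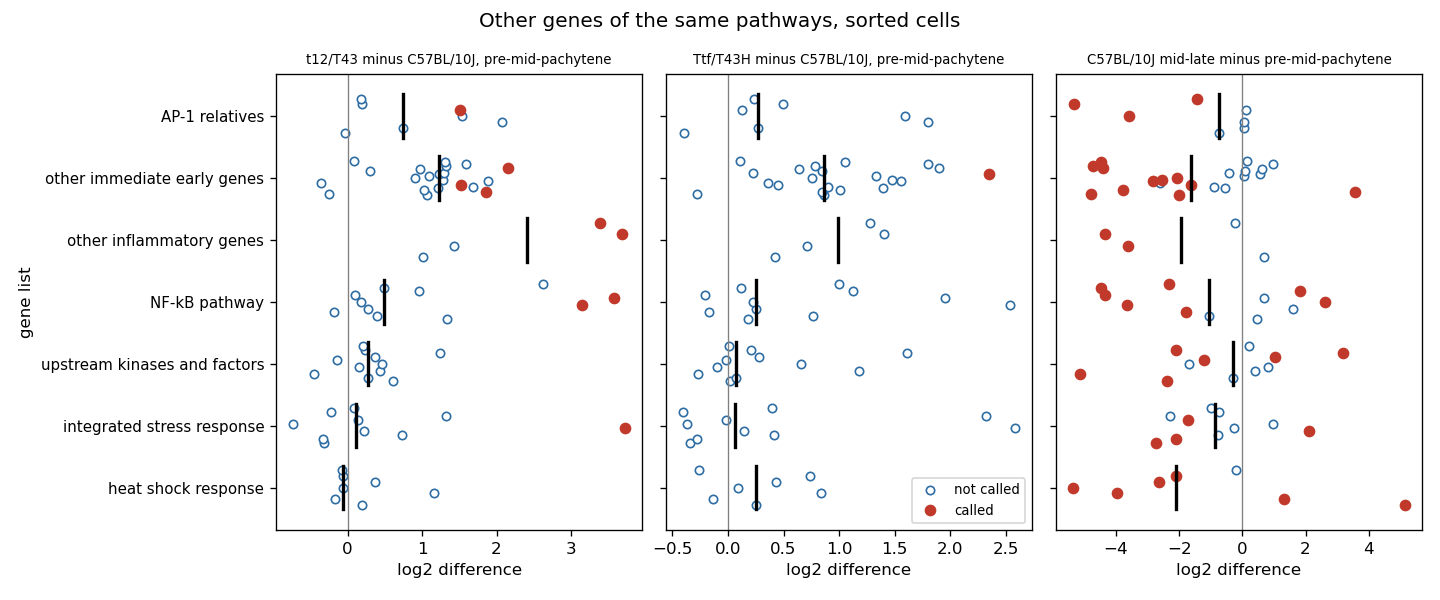
Log2 difference (x axis, with its own scale in each panel) of the tested genes of 7 lists (rows) in 3 comparisons of sorted cells. Filled points passed at an adjusted p under 0.05, open points did not, and the black bar is the list's median; in t12 carriers minus C57BL/10J, 6 of the 32 genes of the upper 3 lists are filled.

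In mid-late against pre-mid-pachytene C57BL/10J cells, 15 of the 32 related genes fell, 1 rose and 16 did not pass, with a median of -1.17 against -0.11 over all genes, of which 30.3% were called lower and 26.2% higher. Mafg, an AP-1 relative, and the early genes Zfp36 and Rhob were below background on both mid-late arrays, with means of 2.56, 2.95 and 3.26. They were at least 14.9-fold, 10.7-fold and 12.7-fold lower there than in pre-mid cells. Sgk1, with 1 mid-late array under 4, fell by 4.72 ± 0.44, and Csrnp1 rose by 3.56 ± 0.46. Of the inflammatory list, Icam1, at a mean of 2.83 in mid-late cells, was at least 5.51-fold lower there, and Lcn2, with 1 mid-late array under 4, fell by 4.36 ± 0.89. Of 7 heat shock genes 2 rose, among them Bag3 by 5.16 ± 0.39, and 4 fell, among them Hspa1b, which was below background in mid-late cells and at least 17.4-fold lower there. Of 11 NF-kB genes 2 rose and 5 fell. Against the shares over all genes these small lists are counts only.

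In testes 32 related genes were tested. In t12 carriers against C57BL/6J, 3 rose and 3 fell, or 9.38% each, which is not above the 10.5% and 11.3% of all genes called higher and lower there, and the median was 0.03 against 0.02 over all genes. The matricellular protein gene Ccn1 fell by 0.89 ± 0.11 (limma, adjusted p = 0.00284), and Ier3 and Nfil3 fell by 1.25 ± 0.35 and 0.91 ± 0.25. Ier3 was at 8.34 on C57BL/6J replicate 1, the array with the higher Fos and Egr1, and at 6.93 on replicate 2. Nfil3 ran the other way, at 5.18 and 5.91. Atf2, Sgk1 and Icam1 rose by 0.28 ± 0.05, 0.48 ± 0.08 and 0.52 ± 0.14. In Ttf carriers 1 fell, Ccn1, by 0.88 ± 0.11 (limma, adjusted p = 0.00569), where 4.70% of all genes were called lower and 3.86% higher, and between the carrier lines 0 passed in limma, with 2 at an unadjusted p under 0.05. The 6 calls in t12 carriers were 3 without t12 replicate 1, where 15.6% of all genes were called, against 21.8% with all arrays. The 1 call in Ttf carriers was 2 without Ttf replicate 1, where 5.37% were called, against 8.56%. That count also rose without either C57BL/6J array, which leaves a single control.

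Like the 8 genes, Sertoli and Leydig markers had higher group means in carrier than in C57BL/10J pre-mid-pachytene cells. Other marker lists did not all do so. Of the Sertoli markers, 4 of 7 tested rose in t12 carriers against C57BL/10J, Wt1 by 2.89 ± 0.48, Cldn11 by 2.41 ± 0.52, Inha by 1.79 ± 0.43 and Aard by 2.13 ± 0.51. Of the Leydig markers, 2 of 5 rose, Cyp11a1 by 5.42 ± 1.13, with 1 control array below background, and Ptgds by 4.24 ± 0.78. Over all genes 3.24% were called higher and 5.83% lower in this comparison. In Ttf carriers 0 of either list passed in limma, where 0.590% of all genes were called higher, and 3 Sertoli and 3 Leydig markers had an unadjusted p under 0.05. All 7 Sertoli and 5 Leydig markers tested stood above the controls on every Ttf array, as did 20.4% of all genes. On every t12 array 6 of 7 and 5 of 5 did so, as did 26.0% of all genes. Cyp11a1 and Cyp17a1, another Leydig marker, passed the filter through carrier arrays alone. The call of Cyp11a1 and the place of both in these Leydig counts are therefore no support. On t12 replicate 3, the highest sorted array for 7 of the 8 genes (all but Fosb), Leydig markers were also highest, at 9.24. So were Sertoli (7.52), endothelial (3.48), macrophage (3.50) and spermatocyte markers (13.96), while peritubular, spermatid and spermatogonial markers were not. The Sertoli markers Amh and Fshr were at background in every sorted group, with means of 1.41 to 1.92. Amh was at background in testes as well, at 1.62 to 1.65. Of the 11 Sertoli markers, 7 reached 4 on every array of each pre-mid-pachytene group. Spermatid markers had means of 5.23 to 7.24 in t12 carriers, 10.07 to 10.65 in Ttf carriers and 11.59 to 12.28 in C57BL/10J, and all 7 fell in t12 carriers. Of 4 tested peritubular markers 1 fell there, Actg2, by 5.33 ± 0.54, and endothelial and spermatogonial markers had 0 calls in limma (1 and 0 at an unadjusted p under 0.05). The part of these markers in the differences of the 8 genes was not tested, and in mixed samples more cells of a type and more RNA per cell cannot be told apart.

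Most macrophage markers were at background in pre-mid-pachytene cells, and single blood cell markers were not. The mean of 11 macrophage markers was 2.89 to 3.50 in t12 carriers, 2.81 to 3.11 in Ttf carriers and 2.80 to 2.85 in C57BL/10J, and 5.55 to 6.15 in testes. Csf1r, C1qa, Ptprc and Itgam were at background in all 3 pre-mid-pachytene groups, with means of 1.89 to 2.44. Ptprc and Itgam were at background in testes too, at means of 2.57 to 2.67 and 2.24 to 2.25, so their low values say nothing on macrophages. In the pre-mid-pachytene groups Mrc1 averaged 8.25, 7.71 and 7.07 and Lyz2 4.67, 3.80 and 3.01. The neutrophil genes S100a8 and S100a9 lay between 2.29 and 2.50 in these groups, and Alas2, a red cell marker, averaged 4.86 in t12 carriers, 4.47 in Ttf carriers and 5.76 in C57BL/10J. In mid-late C57BL/10J cells Adgre1, a macrophage marker, averaged 4.89 and Mpo, a neutrophil marker, 6.58. In testes, where Sertoli markers averaged 9.31 to 9.57 on every array, the 5 genes at background there were Fosb, Atf3, Cxcl1, Cxcl2 and Il1a. Age, tissue, cell suspension and sorting differ between testes and sorted cells, and the part of these cell types was not tested.

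**Figure D5:**
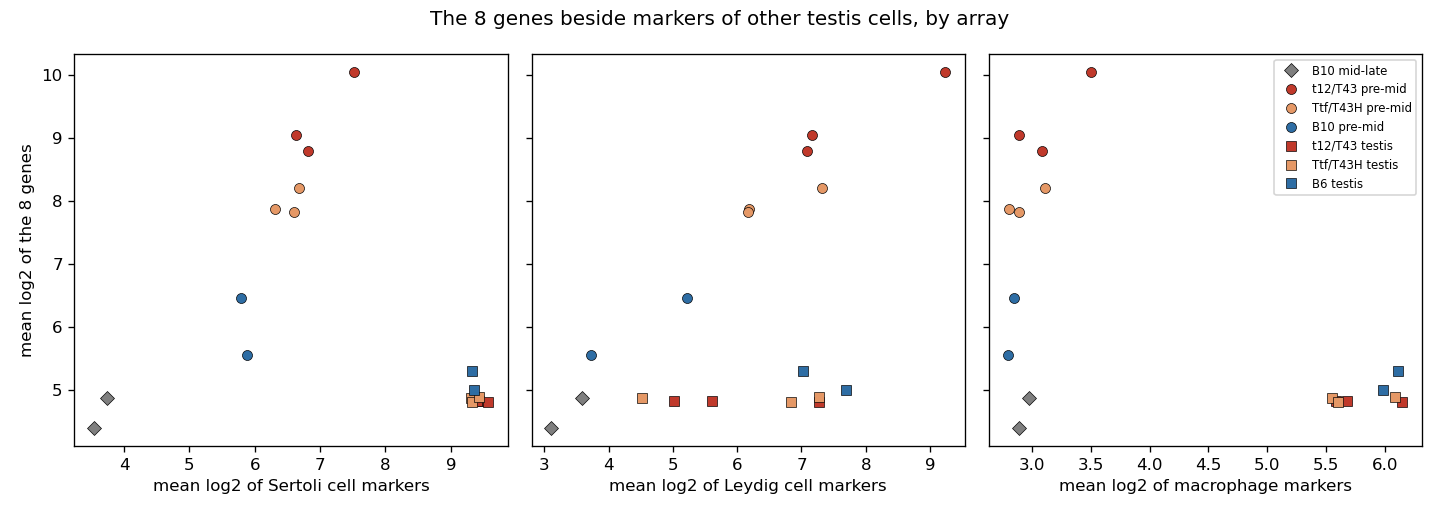
Mean log2 value of the 8 genes (y axis) on each array beside the mean of Sertoli, Leydig and macrophage markers (x axes, mean log2). Each point is an array. Testes have Sertoli means above 9 with means of the 8 genes of 4.82 to 5.30. The t12 carrier sorts have macrophage means of 2.89 to 3.50 with means of the 8 genes of 8.80 to 10.05. Leydig means are 7.09 to 9.24 in t12, 6.17 to 7.32 in Ttf and 3.73 to 5.22 in C57BL/10J pre-mid sorts. Age, tissue and handling differ between testes and sorts, and the part of any marker was not tested.

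The genes with the most similar pattern were sought over the 10 sorted arrays by the root mean square difference between mean-centred log2 values, which describes these arrays and includes those used to choose the 8 genes. For Fos this was Glul, glutamine synthetase, at 0.37, and for Egr1 it was Gpx1, glutathione peroxidase, at 0.18. Jun was nearest to Tnni3 at 0.23 and then to Socs3, an early response gene, at 0.33, and Atf3 to Tgfb3 at 0.35. For Fosb the nearest were Htra1 at 0.65 and Ddit4 at 0.87. Cxcl1 was nearest to Agt, angiotensinogen, at 0.67, Cxcl2 to Klk1b24 at 0.70 and Il1a to Ces1d at 0.87. Ly6e was among the nearest 3 for both Cxcl1 and Cxcl2, at 0.72 each. Among the 8 genes themselves the closest pairs were Cxcl1 with Cxcl2 at 0.84, Jun with Atf3 at 0.87, Fos with Egr1 at 0.88 and Cxcl2 with Il1a at 0.89.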

How the data were processed

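RNA from sorted spermatocytes and from testes was measured on 18 arrays. The values deposited by the authors are on a log2 scale and were made with GCRMA, per the submitters' processing notes, which corrects background, normalizes and summarises probes; its version and which arrays were normalized together are not given in the sources used here. Per the labels, RNA was amplified in a two-cycle biotin protocol. Values were used as deposited. Genes with a log2 value of at least 4 on at least 2 arrays of a fit were tested, 9666 in sorted cells (10 arrays) and 9134 in testes (8 arrays), with limma 3.58.1 in R 4.3.3 (lmFit with 1 mean per group, eBayes, two-sided). A gene is called at an adjusted p under 0.05 (Benjamini-Hochberg, over every gene tested in that comparison). The fit was tested on simulated data. Carrier groups share their controls within a tissue, so those comparisons share the controls' error. Arrays give no depth, and their number limits the precision.

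The 8 genes and the gene lists were chosen with earlier results of these data known. Up to 4 called genes with the smallest p were named per list and comparison, otherwise up to 1. Besides the related genes, lists of receptors, upstream kinases, NF-kB, integrated stress response and heat shock genes and markers of testis cell types were used. Alternatives were no filter, a filter at 6, quantile normalization, median centring, an intensity trend, 1 fit of all arrays, the replicate number as a block, and leaving out arrays, with replicate 2 of both carrier lines left out as an addition after the data were seen. Same-numbered arrays did not deviate together in sorted cells (correlations of -0.35 to 0.25 over 13 pairs). In testes (7 pairs) the correlations were 0.22 to 0.69 for replicates 1 and 3 and -0.08 to 0.13 for replicate 2. The main fits did not take the numbers as pairs. With the replicate block, 31.5% (t12), 23.4% (Ttf) and 18.6% (between the lines) of all genes were called in testes. Without it the shares were 21.8%, 8.56% and 4.99%.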

Additional observations from a re-analysis of the deposited data

Results flagged for a closer look

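Fos, Jun and Egr1 differed from controls in opposite directions in sorted cells and in testes, with every array of the carrier line named on the stated side of both controls. Fos is included for t12 carriers alone, although it did not pass in testes (limma, adjusted p = 0.146 in t12 and 0.298 in Ttf carriers). The difference between sorted cells and testes was not tested, and the controls were C57BL/10J for sorted cells and C57BL/6J for testes. The genes were chosen from the sorted-cell results, so the rise in sorted cells follows from that choice. The sorted part of each gap below is therefore a description and no support. For Egr1 in t12 carriers, the sorted difference of 1.66 exceeded the testis difference of -1.31 by 2.97. For Jun in t12 carriers the gap was 2.33, from 1.98 in sorted cells and -0.35 in testes, and for Fos it was 2.03, from 1.15 and -0.87, where the testis difference was -0.10 without C57BL/6J replicate 1. In Ttf carriers the gap was 2.60 for Egr1, from 1.41 and -1.19, and 2.19 for Jun, from 1.78 and -0.41.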

How the results depend on the processing

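The mean difference over the 8 genes kept its sign in all 4 sorted comparisons under every alternative run, between 2.83 and 3.74 for t12 carriers against C57BL/10J, 1.50 and 2.41 for Ttf carriers, 0.91 and 1.58 between the carrier lines, and -1.83 and -0.92 for mid-late against pre-mid cells. Counts of related genes called were less stable. Without a filter they were 1 (t12) and 0 (Ttf) of 65 against C57BL/10J, where 4.15% and 1.35% of all genes were called. For mid-late cells they were 30 of 65, where 56.2% of all genes were called. For t12 testes and between carrier testes they were 3 and 1 of 65, at shares of 11.9% and 0.944%. With all 18 arrays in 1 fit they were 19 (t12), 7 (Ttf) and 4 (between the carrier lines) of 37 in sorted cells. There 20.8%, 14.7% and 5.41% of all genes were called. For t12 testes the count was 1 of 37, at a share of 1.84%. With a replicate block they were 2 and 0 in sorted cells against C57BL/10J, where 4.14% and 0.186% of all genes were called. They were 6 in Ttf testes and 3 between carrier testes, at shares of 23.4% and 18.6%. A filter at 6 and quantile normalization each gave 1 between the carrier lines, in sorted cells and in testes. Median centring gave 1 between sorted carriers and 2 in Ttf testes, and the intensity trend 2 in Ttf testes and 1 between carrier testes. Without t12 replicate 3 and Ttf replicate 2 the count for Ttf carriers was 3 of 30, where 5.69% of all genes were called. Leaving out replicate 2 of both carrier lines, an alternative chosen after the data were seen, gave 16 (t12), 3 (Ttf) and 3 (between the lines). These were counts of 31 genes, where 28.7%, 18.4% and 5.42% of all genes were called. Leaving out 1 array gave 1 to 8 (t12), 0 to 1 (Ttf) and 0 to 2 (between the lines) in sorted cells, and 3 to 6 (t12) and 1 to 4 (Ttf) in testes. The 2 testis calls per carrier line among the 8 genes became 0 in both lines with all arrays in 1 fit, where Jun and Egr1 had adjusted p-values of 1 and 0.097 in t12 and 1 and 0.273 in Ttf testes. They numbered 1 to 2 (t12) and 0 to 2 (Ttf) when 1 array was left out. Fos in Ttf testes changed to 0.06 without C57BL/6J replicate 1. The cause was not tested, beyond the number of genes and arrays each alternative holds. Values at background limit Fosb, Atf3, Cxcl1, Cxcl2 and Il1a in testes.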
